A study of Mus musculus with 6 samples.

Results

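The genes described here are 54 components of the machinery that copies DNA and divides the cell, measured in epithelial cells from 3 regions of the mouse colon. The set was chosen by gene symbol: 25 S phase genes, which license, open and copy the genome or supply its building blocks, and 29 mitotic genes, which drive entry into and exit from mitosis. All 54 were found among the 24346 gene entries of each library, and all 54 had at least 1 FPKM (fragments per kilobase of transcript, scaled to the library's total) in at least 2 libraries, the condition for being tested. The study took colon epithelial cells from untreated wild-type C57BL/6J mice and sequenced polyadenylated RNA from 6 libraries: proximal, middle and distal colon, each once from male and once from female mice. The labels give neither the age of the mice, nor how many contributed to a library, nor whether the 3 libraries of a sex share animals. Region means below therefore rest on 1 male and 1 female library (n = 2), and the p-values measure only the spread between these libraries.

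The colon epithelium renews itself from crypts. Stem and transit-amplifying cells in the lower crypt divide, and their daughters leave the cell cycle as they move towards the surface. Before S phase the MCM helicase is loaded on origins by Cdc6 and Cdt1. The helicase is then switched on with Cdc45 and GINS, and polymerases copy the DNA while held on it by the PCNA clamp. In G2 and mitosis, cyclin B with Cdk1, the Polo and Aurora kinases and the spindle checkpoint order chromosome separation, and the anaphase-promoting complex ends the phase. In a bulk library, fewer dividing cells and less RNA in each dividing cell cannot be told apart.

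Library depth, estimated from the spacing of the lowest FPKM values, was 7.83 to 7.94 M fragments in the male and 8.93 to 9.94 M in the female libraries. At this depth the scarcest member, Gins1, still had about 11.0 fragments in its poorest library, and 10 of the 54 members had fewer than 50 fragments in theirs. The summed FPKM of 8 epithelial markers was 8690 to 10403 in the 6 libraries. Of 10 stromal and endothelial markers, 2 or 3 reached 1 FPKM in a library (from Vim, Pecam1 and Dcn, at most 5.12 FPKM), their sum was 3.95 to 8.91 FPKM, and Col1a1, Cdh5, Acta2 and Des were at or near 0. Of 7 B and plasma cell markers only Cd74, at 3.49 to 12.7 FPKM, reached 1 FPKM in any library, and Mzb1 was listed at 0 in all 6.

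S phase and mitotic genes are classically switched on through different promoter elements. Factors of the E2F family bind the first kind of promoter at G1/S, and the second kind carries a cell cycle genes homology region (CHR), often with CCAAT boxes bound by NF-Y. RefSeq promoter sequences (build GRCm38.p6, 250 bases before to 50 after each gene's start) were matched for 20 of the 25 S phase and 22 of the 29 mitotic members and searched on both strands. An E2F element was taken as TTTGGCGC, TTTCCCGC, TTTGCCGC or TTTCGCGC, a second E2F form as GGCGGGAA (which can overlap the first, as in Mcm3), a CHR as TTTGAA or TTCGAA, and a CCAAT box as CCAAT. The first E2F form was present in 8 of 20 S phase promoters (40%), in 1 of 22 mitotic promoters (4.55%, the gene Cdk1) and in 2.61% of all 27025 genes in the promoter table. The form GGCGGGAA was present in 5 S phase promoters (25%) and in none of the 22 mitotic ones, against 2.52% of all genes. The CHR letters were present in 17 of 22 mitotic promoters (77.3%), 3 of 20 S phase promoters (15%) and 21.7% of all genes. CCAAT was present in 19 mitotic (86.4%) and 12 S phase promoters (60%), against 41.1% of all genes. A match says only that these letters stand in this window.

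The promoters of 3 S phase and 3 mitotic members show the difference in letters. Each line gives the 120 bases before the RefSeq start, 5′ to 3′ on the gene's own strand, with GRCm38.p6 coordinates. Capitals mark matches to the motifs above.
Mcm6 (chr1:128359706-128359825, minus strand): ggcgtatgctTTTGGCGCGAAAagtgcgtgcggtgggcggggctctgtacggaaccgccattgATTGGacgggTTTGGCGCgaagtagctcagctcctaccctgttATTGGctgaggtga
Rrm1 (chr7:102441575-102441694, plus strand): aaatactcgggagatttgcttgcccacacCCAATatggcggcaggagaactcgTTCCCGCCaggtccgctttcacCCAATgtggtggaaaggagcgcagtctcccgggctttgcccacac
Rrm2 (chr12:24708134-24708253, plus strand): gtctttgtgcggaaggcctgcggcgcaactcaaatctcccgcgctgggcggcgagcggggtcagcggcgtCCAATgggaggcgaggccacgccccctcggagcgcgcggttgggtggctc
Cdc20 (chr4:118437344-118437463, minus strand): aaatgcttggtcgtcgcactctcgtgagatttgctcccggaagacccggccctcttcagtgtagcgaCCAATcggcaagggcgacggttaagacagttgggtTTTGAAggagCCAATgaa
Top2a (chr11:99024190-99024309, minus strand): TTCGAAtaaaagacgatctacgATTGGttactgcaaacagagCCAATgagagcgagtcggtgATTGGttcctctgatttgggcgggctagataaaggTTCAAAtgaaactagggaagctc
Mki67 (chr7:135716380-135716499, minus strand): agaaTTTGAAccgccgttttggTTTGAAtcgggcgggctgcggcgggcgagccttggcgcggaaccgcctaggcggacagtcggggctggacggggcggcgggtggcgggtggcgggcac
Mcm6, a helicase subunit, has overlapping E2F matches far from the start and another nearer to it, and Rrm1, the large subunit of ribonucleotide reductase, has the second E2F form. Rrm2, the small subunit of the same enzyme, has a CCAAT box and no E2F match of either form in its 300-base window. The mitotic genes Cdc20, Top2a and Mki67 each have CHR matches in the printed stretch. Of the 8 members that passed the regional test below, Ube2c, Cdc20 and Cenpa had a CHR match, Rrm2, Pcna and Ccnb1 had a CCAAT match only, and Birc5 had no match of any kind. The promoter of Mcm4 was not among those matched.

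Expression along the colon was compared with limma on log2(FPKM + 1), with region and sex as terms, over all 11815 genes that met the FPKM condition, and with Benjamini-Hochberg adjustment over those genes. Most replication and mitosis genes had lower levels in distal than in proximal colon, and 8 of the 54 passed the test. The fitted difference was below 0 for 53 of the 54 members, Stmn1 being the exception at 0.03, and for 5787 of all 11815 tested genes. All members were measured in the same libraries, so the 53 are not separate observations. The median fitted difference was -0.50 for the S phase and -0.52 for the mitotic members, against 0.0067 for all tested genes. At an adjusted p under 0.05, 3 of 25 S phase members (Rrm2, Mcm4 and Pcna) and 5 of 29 mitotic members (Cdc20, Ccnb1, Ube2c, Birc5 and Cenpa) fell, which is 12% and 17.2%, where 7.64% of all tested genes fell. No member rose, where 6.47% of all tested genes did. At an unadjusted p under 0.05 the counts were 11 S phase and 19 mitotic members, against 3451 of all 11815 tested genes in either direction. Both distal libraries lay below both proximal libraries for 23 S phase members and 21 mitotic members (92% and 72.4%), against 29.5% of all tested genes. The count of calls depended on single libraries. It was 0 and 0 (S phase and mitotic) without the male distal library, 1 and 0 without either the female proximal or the female distal library, and 11 and 15 without the male proximal library. Each of these fits leaves 1 library in the region concerned. Without the male or without the female middle library it was 3 and 3. It was also 0 and 0 with no condition on low FPKM, where 685 of 17094 tested genes fell. With no term for sex it was 2 and 0, where 656 of 11815 tested genes fell. Among all tested genes fewer fell than in the main fit whichever library was left out, and fewest without the male distal library. Beside these calls, 11 markers of T cells and intraepithelial lymphocytes summed to 94.1 (male) and 40.5 FPKM (female) in proximal against 12.9 and 16.2 in distal colon, and 10 crypt markers to 312 and 339 against 175 and 142. The highest single crypt marker held 155 (male) and 165 FPKM (female) of the proximal sums, and 53.6 and 51.0 FPKM of the distal sums. The part of lymphocytes and crypt cells in the differences was not tested.

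**Figure D1:**
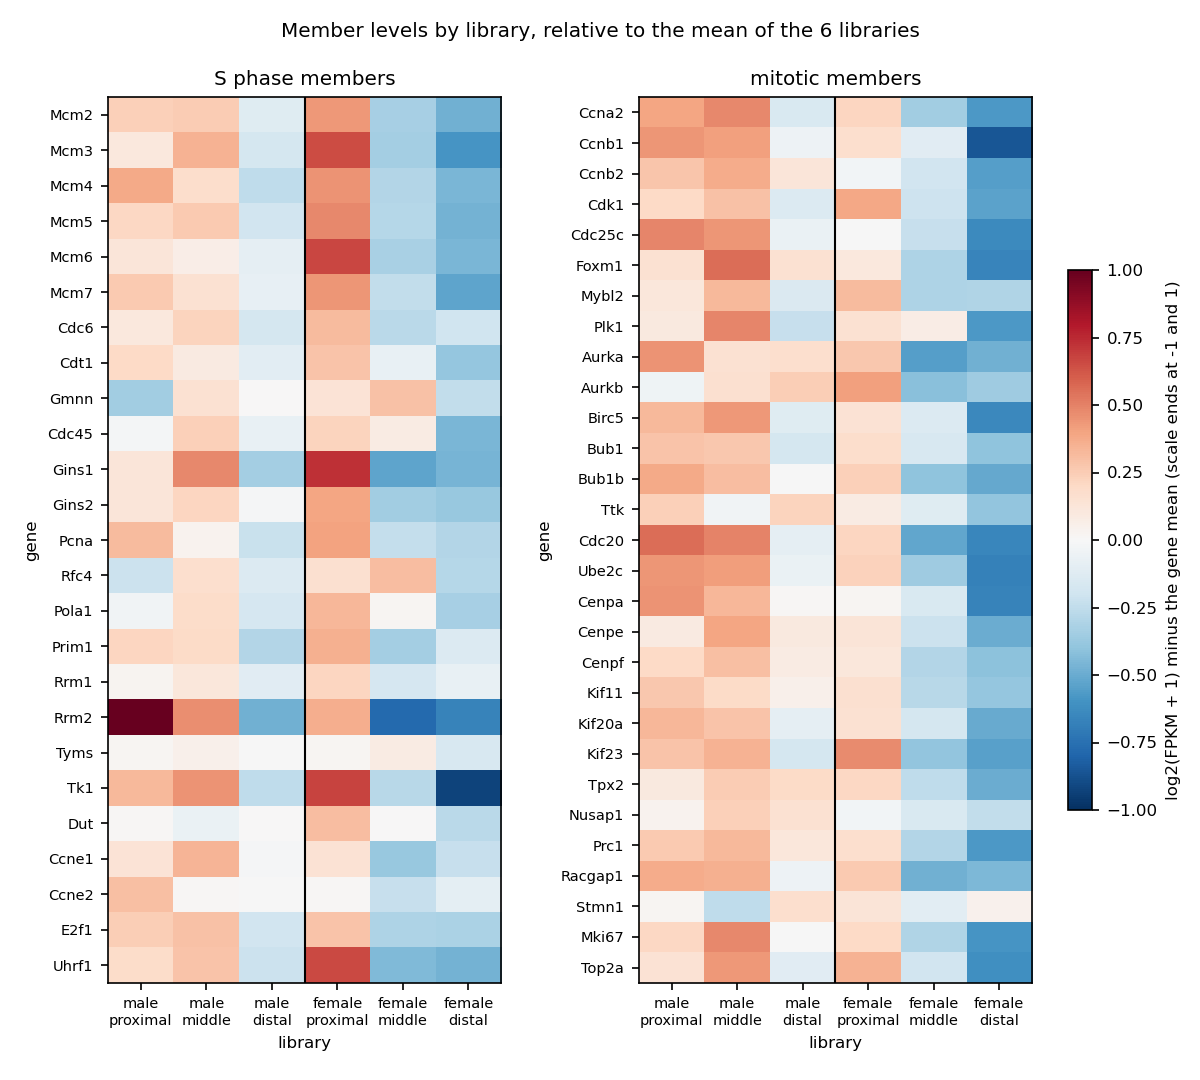
Each row is a member and each column a library, with colour giving log2(FPKM + 1) minus the gene's mean over the 6 libraries, on a scale that ends at -1 and 1. Proximal libraries of both sexes and the male middle library hold most values above the gene mean, and the female distal library holds the lowest value of 41 of the 54 genes. The same count was not made over all tested genes.

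Among the S phase members, the 6 subunits of the MCM2-7 replicative helicase were the most uniform group, with fitted distal against proximal differences between -0.77 and -0.64. All 6 were lower in both distal than in both proximal libraries, all 6 had an unadjusted p under 0.05, and 1 of 6 passed the adjusted threshold. Mcm4 (mm10 chr16:15623897-15637400, minus strand) measured 10.3 (male) and 10.9 FPKM (female) in proximal colon, 8.83 and 6.13 in middle colon, and 6.304 and 5.35 in distal colon. Its region means were 10.6 ± 0.384 FPKM (SD, n = 2) in proximal and 5.83 ± 0.675 in distal colon, a log2 difference of -0.77 ± 0.16 (adjusted p = 0.033), where the value after ± is the standard error. The 2 proximal libraries lay close together and above all others, and the female middle value lay between the distal values. Mcm7, the subunit with the highest mean level, measured 24.6, 22.8 and 19.3 FPKM along the male colon and 28.1, 17.02 and 13.9 along the female colon, a fitted difference of -0.65 ± 0.18 (adjusted p = 0.072). Mcm6, whose promoter is printed above, measured 20.996, 20.2 and 18.04 FPKM along the male colon and 31.2, 15.2 and 13.7 along the female colon. The female proximal library was the highest for both, and the female values spanned a wider range than the male ones. For Mcm6 the adjusted p was 0.15, and for Mcm2, Mcm3 and Mcm5 it was 0.10, 0.16 and 0.098. None of these passed the threshold.

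Of the 6 genes of origin licensing and firing, none passed the threshold in distal against proximal colon, with the smallest adjusted p (0.070) at Cdt1. Cdt1 helps to load the helicase and measured 11.2, 10.2 and 8.82 FPKM along the male colon and 11.9, 9.06 and 7.09 along the female colon. All proximal values exceeded all middle values, and these exceeded all distal values. Gmnn encodes geminin, the inhibitor that binds Cdt1 and blocks a second round of licensing, and had the highest mean level of this group. It measured 14.98, 21.6 and 19.4 FPKM along the male colon and 21.4, 23.9 and 16.1 along the female colon, with a fitted difference of -0.02 ± 0.18 (adjusted p = 0.96). Its lowest library was male proximal and its highest female middle, so that the inhibitor and the loader it binds were ordered differently along the colon. Gins1 and Gins2, subunits of the GINS complex that activates the helicase, had fitted differences of -0.83 ± 0.38 (adjusted p = 0.22) and -0.45 ± 0.22 (adjusted p = 0.24). Gins1 ranged from 1.26 FPKM in female middle to 4.42 in female proximal colon. Cdc45, the other activator, and Cdc6, a loader, had fitted differences of -0.37 and -0.40 (adjusted p = 0.27 and 0.35). Cdc6 was the least abundant member of all, at 0.678 to 1.52 FPKM.

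In the group of the clamp, its loader and the initiating polymerase, 1 of 4 members fell. Pcna (mm10 chr2:132249162-132253314, minus strand), the sliding clamp that tethers polymerases to DNA, was the most abundant S phase member. It measured 93.5 (male) and 98.9 FPKM (female) in proximal colon, 76.8 and 63.1 in middle colon, and 63.9 and 60.8 in distal colon. Proximal colon held 96.2 ± 3.802 FPKM (SD, n = 2) and distal colon 62.4 ± 2.201, a difference of -0.62 ± 0.12 (adjusted p = 0.027). Both proximal libraries lay above both middle libraries, and the female middle value lay between the 2 distal values. Rfc4, a subunit of the complex that loads the clamp, did not share that order: it measured 7.75, 10.4 and 8.27 FPKM along the male colon and 10.4, 11.6 and 7.35 along the female colon. Both middle libraries were its highest within their sex, and the difference between distal and proximal colon was -0.18 ± 0.16 (adjusted p = 0.51). Pola1 and Prim1, subunits of the DNA polymerase alpha and primase complex that lays down the first primer, differed by -0.39 ± 0.20 (adjusted p = 0.26) and -0.50 ± 0.20 (adjusted p = 0.18).

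Among the 5 genes of deoxynucleotide supply the small subunit of ribonucleotide reductase stood out in size. Rrm2 (mm10 chr12:24708241-24714146, plus strand) measured 16.7 (male) and 9.67 FPKM (female) in proximal colon, 10.4 and 3.84 in middle colon, and 4.95 and 4.22 in distal colon. Distal levels were 0.297 of the proximal level in male and 0.437 in female mice, and the fitted difference was -1.30 ± 0.25 (adjusted p = 0.027), the lowest of all 54 members. The male library was the higher of the pair in every region. The large subunit Rrm1 measured 11.4, 12.2 and 10.2 FPKM along the male colon and 13.2, 9.81 and 10.6 along the female colon, with a fitted difference of -0.22 ± 0.15 (adjusted p = 0.40). Tk1, thymidine kinase of the salvage pathway, had the second lowest fitted difference at -1.09 ± 0.28 (adjusted p = 0.059) and narrowly missed the threshold. It measured 24.6 (male) and 31.7 FPKM (female) in proximal colon, 26.97 and 15.9 in middle colon, and 16.2 and 9.75 in distal colon, with both distal libraries below both proximal ones and the female pair further apart than the male pair. Tyms, which makes thymidylate from deoxyuridylate, was nearly level. Its values ran from 10.1 FPKM in female distal to 12.2 in female middle colon, and the fitted difference was -0.10 ± 0.11 (adjusted p = 0.61). Dut, which removes dUTP, differed by -0.29 ± 0.17 (adjusted p = 0.32).

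None of the 4 members of G1/S control and chromatin copying passed the threshold. Uhrf1, which recruits the maintenance DNA methyltransferase to newly copied DNA, was the most abundant of them and measured 9.39, 10.1 and 6.896 FPKM along the male colon and 13.5, 5.73 and 5.59 along the female colon. The female proximal library was again the highest, and the adjusted p for distal against proximal colon was 0.14 at a fitted difference of -0.76. E2f1, the activating transcription factor of the G1/S programme, measured 2.56 and 2.67 FPKM in proximal and 1.63 and 1.41 in distal colon (fitted difference -0.52 ± 0.21, adjusted p = 0.18). The E-type cyclins, partners of Cdk2 at S phase entry, had fitted differences of -0.26 for Ccne1 and -0.21 for Ccne2 (adjusted p = 0.48 and 0.54).

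**Figure D2:**
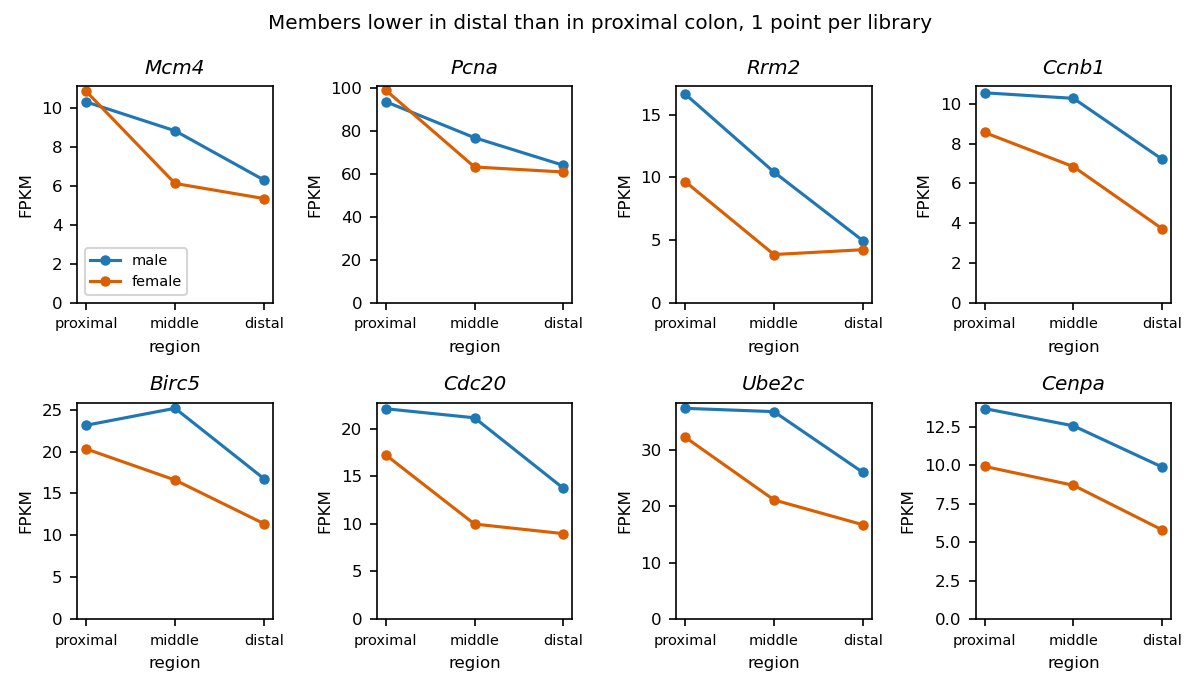
FPKM on a linear axis from 0 in each of the 6 libraries for the 8 members that passed the threshold between distal and proximal colon, with male libraries in blue and female libraries in orange. In every panel both distal points lie below both proximal points. The male middle point lies near the male proximal one for Ccnb1, Cdc20 and Ube2c, and the female middle point does so for none of these.

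Among the mitotic members, 4 of the 7 functional groups held at least 1 gene that fell in distal colon. Of the 5 genes of cyclins, Cdk1 and its activator, 1 passed the threshold. Ccnb1 (mm10 chr13:100778650-100786570, minus strand), the cyclin that activates Cdk1 at mitotic entry, measured 10.6 (male) and 8.57 FPKM (female) in proximal colon, 10.3 and 6.85 in middle colon, and 7.21 and 3.71 in distal colon, a difference of -0.76 ± 0.16 (adjusted p = 0.034). The female distal library was the lowest by a wide margin, and the male library was the higher of the pair in every region. Ccnb2, the second B-type cyclin and the most abundant gene of the group, measured 19.6, 20.9 and 17.5 FPKM along the male colon and 15.7, 13.9 and 10.6 along the female colon. Its male distal value was above its female proximal value, and the difference of -0.34 ± 0.13 (adjusted p = 0.15) did not pass. Ccna2, Cdk1 and Cdc25c, the cyclin of S phase and G2, the mitotic kinase and the phosphatase that activates it, differed by -0.67, -0.63 and -0.59 (adjusted p = 0.061, 0.10 and 0.081).

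The transcription factors of the mitotic programme, Foxm1 and Mybl2 (B-Myb), had adjusted p-values of 0.35 and 0.30. Foxm1 measured 4.26, 5.95 and 4.24 FPKM along the male colon and 4.08, 2.82 and 1.98 along the female colon. Its male proximal and male distal values were almost equal while the female distal value was below all others.

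Among the kinases and the chromosomal passenger complex, Birc5 passed the threshold. Birc5 (mm10 chr11:117849251-117855743, plus strand) encodes survivin, the subunit that targets Aurora B to centromeres, and measured 23.1 (male) and 20.3 FPKM (female) in proximal colon, 25.2 and 16.6 in middle colon, and 16.8 and 11.4 in distal colon. The difference was -0.61 ± 0.13 (adjusted p = 0.038), and the highest library was male middle. Plk1, the Polo kinase of mitotic entry and spindle assembly and the most abundant kinase of the set, measured 27.1, 35.8 and 21.3 FPKM along the male colon and 28.2, 26.6 and 16.6 along the female colon. Both distal libraries lay below the other 4, and the male middle library stood above the rest. Its difference was -0.53 ± 0.14 (adjusted p = 0.070) against proximal and -0.68 ± 0.14 (adjusted p = 0.15) against middle colon. Aurka, the centrosomal Aurora kinase, differed by -0.52 ± 0.17 (adjusted p = 0.11) between distal and proximal colon. Aurkb, the passenger kinase itself, differed by -0.24 ± 0.28 (adjusted p = 0.63), and its lowest 2 libraries were female middle and female distal.

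In the spindle checkpoint and anaphase group, 2 of 5 members fell, and both act on the anaphase-promoting complex. Cdc20 (mm10 chr4:118432901-118437352, minus strand) is the activator that the checkpoint holds back and measured 22.1 (male) and 17.2 FPKM (female) in proximal colon, 21.1 and 9.98 in middle colon, and 13.7 and 8.97 in distal colon. Its difference was -0.76 ± 0.18 (adjusted p = 0.046). Ube2c (mm10 chr2:164769898-164778822, plus strand), the ubiquitin-conjugating enzyme of that complex, measured 37.3 (male) and 32.2 FPKM (female) in proximal colon, 36.7 and 21.1 in middle colon, and 25.98 and 16.7 in distal colon, a difference of -0.71 ± 0.16 (adjusted p = 0.039). For both genes the male proximal and male middle libraries formed a high pair and the female middle and female distal libraries a low pair, with the male distal library between them and the female proximal library. The checkpoint proteins upstream had larger adjusted p-values, 0.13 for Bub1, 0.090 for Bub1b (BubR1) and 0.47 for Ttk (Mps1), at differences of -0.52, -0.57 and -0.25.

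Of the 3 centromere and kinetochore genes, Cenpa fell. Cenpa (mm10 chr5:30666777-30674830, plus strand) is the histone H3 variant that marks centromeres. It measured 13.7 (male) and 9.91 FPKM (female) in proximal colon, 12.5 and 8.69 in middle colon, and 9.87 and 5.78 in distal colon, a difference of -0.56 ± 0.12 (adjusted p = 0.037). The male distal value nearly equalled the female proximal value, so that the groups were separated by less than the gap between the sexes. Cenpe, a kinetochore motor, and Cenpf, a kinetochore protein, differed by -0.31 ± 0.22 (adjusted p = 0.41) and -0.32 ± 0.19 (adjusted p = 0.33).

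None of the 8 spindle and cytokinesis members passed the threshold. The kinesins Kif20a, Kif23 and Kif11 differed by -0.54, -0.74 and -0.38 (adjusted p = 0.061, 0.10 and 0.16). Racgap1 and Prc1 work at the central spindle and differed by -0.57 and -0.44 (adjusted p = 0.12 and 0.17), while Tpx2 and Nusap1, which stabilise spindle microtubules, differed by -0.31 and -0.05 (adjusted p = 0.42 and 0.88). Stmn1, stathmin, which destabilises microtubules and is also made in cells that do not divide, was the most abundant member of all 54. It measured 83.8 (male) and 90.1 FPKM (female) in proximal colon, 68.9 and 76.7 in middle colon, and 92.6 and 85.1 in distal colon. Both middle libraries were below all proximal and distal libraries, and the distal against proximal difference was 0.03 ± 0.11 (adjusted p = 0.90).

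Mki67, the gene of the Ki-67 antigen that stains cycling nuclei, measured 18.7 (male) and 18.6 FPKM (female) in proximal colon, 22.7 and 12.9 in middle colon, and 15.99 and 10.3 in distal colon. The 2 proximal values were almost identical, the male middle library was the highest and the female distal library the lowest, and the difference of -0.50 ± 0.20 (adjusted p = 0.16) did not pass. Top2a, the topoisomerase that untangles sister chromosomes, differed by -0.61 ± 0.22 (adjusted p = 0.13). Both distal libraries lay below both proximal libraries for these 2 genes.

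**Figure D3:**
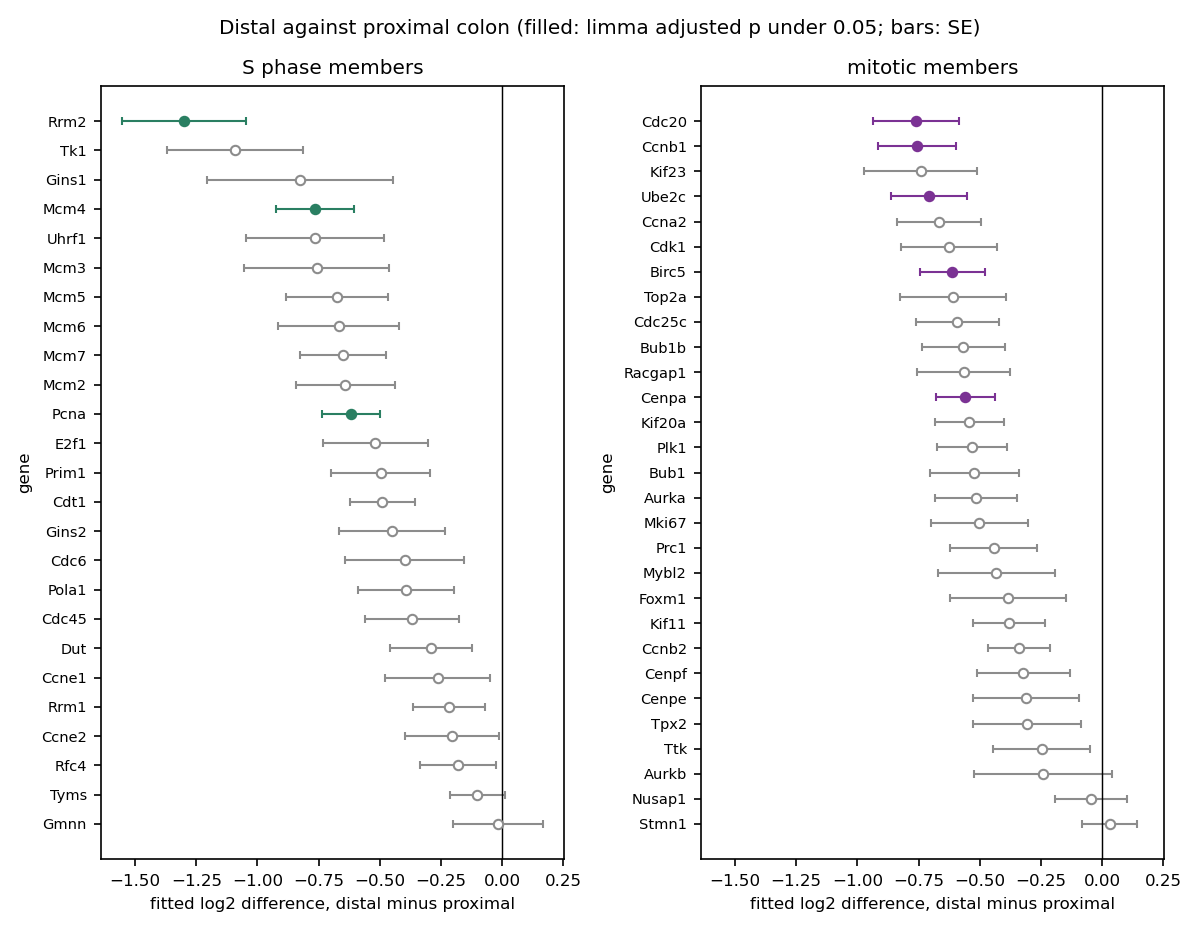
Fitted difference in log2(FPKM + 1), distal minus proximal, for each member, ordered from the lowest, with bars giving 1 standard error and filled points an adjusted p under 0.05. All points but Stmn1 lie below 0, and many open points sit at differences as large as the filled ones but with wider bars.

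In middle colon no member passed the limma threshold against either neighbouring region. Against proximal colon, where 2.45% of all tested genes passed in either direction, 0 of 54 members did. An unadjusted p under 0.05 was found for 3 S phase members (Pcna, Rrm2 and Mcm4) and 1 mitotic member (Aurka). It was found for 2164 of all 11815 tested genes. The smallest adjusted p of a member was 0.12, at Pcna. Both middle libraries lay below both proximal libraries for 7 S phase members and 3 mitotic members, against 22.2% of all tested genes. They lay above for 3 S phase members (Gmnn, Rfc4 and Tyms) and 0 mitotic members, against 2557 of all 11815 tested genes. Mcm6 and Tk1 passed when the male proximal library was left out, which leaves 1 proximal library. More of all tested genes passed there as well than in the main fit. Between distal and middle colon, where 0.499% of all tested genes passed, 0 of 54 members did. An unadjusted p under 0.05 was found for 1 S phase and 9 mitotic members, against 1499 of all 11815 tested genes. The smallest adjusted p of a member (0.15) was at Plk1. Tk1 and Plk1 passed in that comparison when either proximal library was left out. Many more of all tested genes passed there as well than in the main fit. Both distal libraries lay below both middle libraries for 6 S phase members and 2 mitotic members, against 19.1% of all tested genes.

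The place of the step differed between the male and the female libraries. The median S phase difference from proximal to middle colon was 0.06 for male and -0.64 for female mice, and the mitotic medians were 0.07 and -0.43. From middle to distal colon the medians were -0.35 (S phase) and -0.40 (mitotic) in the male libraries and -0.16 and -0.27 in the female libraries. The larger of the 2 steps downward lay between middle and distal colon for 48 of 54 members in the male libraries, and between proximal and middle colon for 41 of 54 members in the female libraries. This count was not made over all tested genes. Both steps of a sex use its 1 middle library, so a high or low value there moves them in opposite directions. The members' median deviation from their own mean was 0.28 in the male middle and -0.27 in the female middle library. Over the whole length, distal minus proximal, the medians were -0.30 (S phase) and -0.28 (mitotic) in male, and -0.68 and -0.73 in female libraries. Distal was below proximal in both sexes for 47 of 54 members (87.0%), against 34.7% of all tested genes. Middle was above proximal in the male and below it in the female libraries for 29 of 54 members (53.7%), against 20.2% of all tested genes. Mki67, Top2a, Plk1 and Cdk1 were among these 29, and so were Mcm2, Mcm3, Mcm5 and Tk1. With 1 library for each sex and region this difference between the sexes was not tested.

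**Figure D4:**
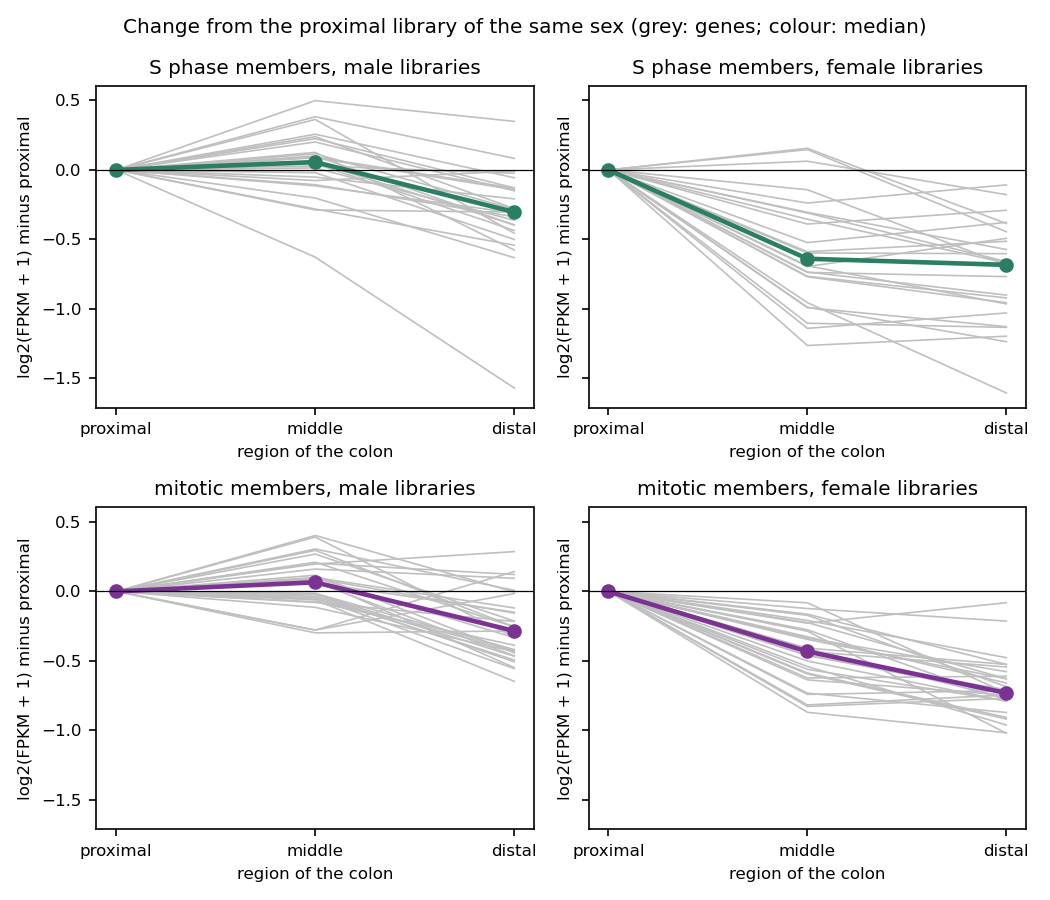
Change in log2(FPKM + 1) from the proximal library of the same sex, for each member in grey and for the median in colour, with male libraries on the left and female libraries on the right. The male medians stay near 0 at middle colon and lie lower at distal colon, and the female medians are already at -0.64 (S phase) and -0.43 (mitotic) at middle colon.

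Female and male libraries were compared over the 3 regions in the same fit. The 5 genes that passed that comparison among all tested genes (0.0423%) included no member. At an unadjusted p under 0.05 there were 1256 of all 11815 tested genes. Among the members there were 1 of 25 S phase members, Rrm2 (-0.72 ± 0.21, adjusted p = 0.42), and 17 of 29 mitotic members, all of these lower in female libraries. Cenpa had the smallest adjusted p at -0.53 ± 0.10 (adjusted p = 0.33), followed by Ccnb2 at -0.51 ± 0.10 (adjusted p = 0.35) and Cdc20 at -0.64 ± 0.14 (adjusted p = 0.39). The median difference was -0.17 for S phase and -0.39 for mitotic members. In proximal colon, with 1 library of each sex, the medians of the 2 member classes lay on opposite sides of 0. There 22 of 25 S phase members were higher in the female library, with a median of 0.21, and 20 of 29 mitotic members were lower in it, with a median of -0.11. In middle colon the medians were -0.46 and -0.59, and in distal colon -0.22 and -0.52. The female proximal library was the highest of all 6 for 17 of 25 S phase members, whereas male proximal was the highest for 12 and male middle for 13 of 29 mitotic members. These counts rest on single libraries and were not made over all tested genes. The female libraries were also the deeper ones (8.93 to 9.94 against 7.83 to 7.94 M fragments), and the part of depth in these values was not tested. In every region the male library is the first replicate and the female library the second. Sex therefore cannot be told apart from any other difference between the replicates.

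**Figure D5:**
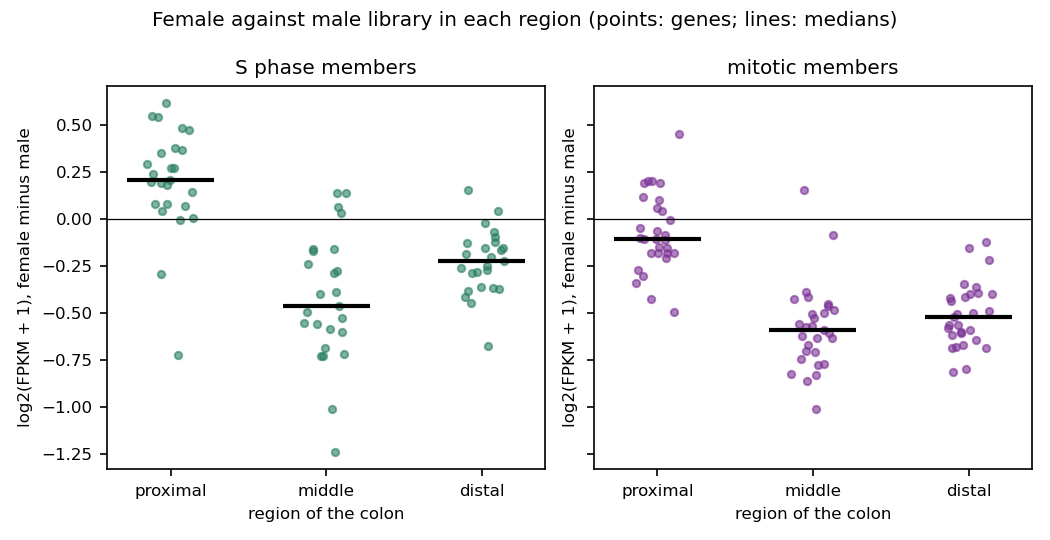
Female minus male difference in log2(FPKM + 1) in each region, with 1 point per member (spread sideways for visibility) and a line at the median. In proximal colon the S phase median lies above 0 and the mitotic median below it, and in middle and distal colon both lie below 0.

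The other genes of the 2 pathways were counted in the same way. Of 47 further replication genes, all of which were tested, 0 rose and 7 fell in distal against proximal colon (14.9%, against 7.64% of all tested genes), with a median of -0.27. These included Pola2, a subunit of DNA polymerase alpha (-1.23 ± 0.12, adjusted p = 0.0046), Rfc2 of the clamp loader (-0.78 ± 0.10, adjusted p = 0.0093) and the PCNA-binding factor Pclaf, listed in the files under the older symbol 2810417H13Rik (-1.29 ± 0.12, adjusted p = 0.0044). Pola2 measured 15.2, 10.3 and 6.14 FPKM along the male colon and 13.6, 7.66 and 4.997 along the female colon, and 2810417H13Rik measured 12.2, 7.13 and 4.48 FPKM along the male colon and 9.62, 4.82 and 3.27 along the female colon. Both were ordered proximal, middle, distal within each sex, and for both the 2 distal libraries lay below all others. Pclaf was also lower in middle than in proximal colon, at -0.78 ± 0.12 (adjusted p = 0.047). Mcm10, a replication initiation factor, was the next by p-value at -1.03 ± 0.21 (adjusted p = 0.031). Of 66 further mitosis genes 65 were tested, and 0 rose and 3 fell, with a median of -0.40. That share, 4.62%, lies below the 7.64% of all tested genes. The 3 were Spc25 of the NDC80 kinetochore complex (-0.80 ± 0.13, adjusted p = 0.019), Cdca8, which encodes the passenger protein borealin (-0.73 ± 0.15, adjusted p = 0.032), and Mad2l1, which encodes the checkpoint protein MAD2 (-0.58 ± 0.13, adjusted p = 0.039). Among matched promoters of these further genes, a CHR match was present in 42 of 59 mitosis genes (71.2%), and the first E2F form was present in 13 of 39 replication genes (33.3%).

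Of 37 listed D-type cyclins, inhibitors, pocket proteins and E2F partners, 35 were tested, and 1 rose and 4 fell. The 5 make up 14.3% of the list, close to the 14.1% of all tested genes that passed in either direction. Ccnd2, cyclin D2, was the one that rose, at 0.94 ± 0.13 (adjusted p = 0.011). It measured 19.6, 36.3 and 45.03 FPKM along the male colon and 28.9, 45.9 and 48.4 along the female colon, with both proximal libraries below the other 4. Ccnd1, cyclin D1, fell by 0.82 on the log2 scale (adjusted p = 0.012) and measured 29.2, 22.5 and 16.5 FPKM along the male colon and 29.7, 18.1 and 15.9 along the female colon. The 2 D-type cyclins thus ran in opposite directions along the colon in both sexes. Cdkn1c, the Cdk inhibitor p57, fell by 1.48 (adjusted p = 0.0083), from 3.702 and 2.89 FPKM in the proximal to 0.747 and 0.355 in the distal libraries. Cdc25a, a phosphatase that activates Cdk2, fell too, at -0.70 ± 0.13 (adjusted p = 0.026), as did Pkmyt1, an inhibitory kinase of Cdk1 that is named after its value was seen, at -0.49 ± 0.11 (adjusted p = 0.036).

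Of 10 crypt stem and progenitor markers 9 were tested and 4 fell in distal against proximal colon (44.4%, against 7.64% of all tested genes): Cd44, Prom1, Myc and Slc12a2. The markers did not all run the same way. The fitted difference was below 0 for 6 of the 9 and above 0 for 3, the highest at 0.64. Both distal libraries lay below both proximal libraries for 6 markers and above them for 2, against 3491 and 3634 of all 11815 tested genes. The 10 genes summed to 296 (male) and 223 FPKM (female) in middle colon, between the proximal and distal sums of each sex given above. The highest single gene held 157 and 78.6 FPKM of these middle sums. The stem cell markers Lgr5 and Ascl2 differed by -0.51 ± 0.19 (adjusted p = 0.15) and 0.01 ± 0.15 (adjusted p = 0.96), and Olfm4 was listed at 0 in every library. Of 10 surface colonocyte markers, genes of the differentiated cells, 1 rose (Muc13) and 3 fell (Tmigd1, Emp1 and Ceacam1), where 6.47% of all tested genes rose and 7.64% fell. These markers ran both ways as well, with a fitted difference above 0 for 6 of the 10 and below 0 for 4. Both distal libraries lay above both proximal libraries for 6 of them and below for 4, against 3634 and 3491 of all 11815 tested genes. The 10 summed to 11505 (male) and 13564 FPKM (female) in proximal against 16290 and 17054 in distal colon. That sum is carried by 1 gene, Lypd8. The highest single gene held 6985 and 7996 FPKM of the proximal sums, and 11760 and 12670 FPKM of the distal sums. Of 11 matched T cell and intraepithelial lymphocyte markers 9 were tested and 4 fell (Gzma, Cd7, Gzmb and Cd8a), which is 44.4% against 7.64% of all tested genes. Of 6 myeloid markers 2 were tested and Cd14 rose, while Adgre1 and Csf1r were at or near 0 in every library. The lymphocyte marker sum in middle colon was 11.9 and 20.7 FPKM, near the distal level given above. These markers at 1 FPKM or more numbered 10 and 9 of 11 in proximal against 2 and 3 of 11 in distal colon, and Cd8b1 in male middle and Gzma in female distal colon were listed at 0.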

How the data were processed

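The authors deposited FPKM values per gene for each library, which are normalized for transcript length and library size and are not counts. The submitters' processing notes name Cuffdiff 2.2.1, the aligners TopHat2 2.1.1 and Bowtie2 2.2.8, SAMtools 0.1.18 and the mm10 build, and the labels' protocols name a stranded mRNA library kit. Groups were taken from the labels. Genes with at least 1 FPKM in at least 2 libraries were tested with limma 3.58.1 (R 4.3.3) on log2(FPKM + 1), with region and sex as additive terms, a variance trend and Benjamini-Hochberg adjustment over the 11815 tested genes. Differences on this scale understate the change of low genes. A term for region by sex would leave 0 residual degrees of freedom and was not fitted. Depth was estimated from the spacing of low values. The script was tested on simulated data. The members and all gene lists were chosen with earlier results of these data known. Values in every library are given for members that passed a region comparison, for the 3 with the highest mean FPKM in each class and for the highest of each functional group. Other lists name up to 4 genes with the smallest p among those that passed. Gene positions come from the GENCODE annotation of mm10 and promoters from RefSeq. A total of 13 alternatives were run: another pseudocount, other low-value conditions, 2 normalizations, no trend, no sex term, and each library left out.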

Additional observations from a re-analysis of the deposited data

Results flagged for a closer look

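In 2 comparisons the median of a gene class lay on opposite sides of 0 in 2 groups of libraries. The first is middle against proximal colon. The S phase median was 0.056 for male and -0.64 for female libraries, and the mitotic median was 0.066 for male and -0.43 for female libraries. The second is female minus male for the S phase members, whose median was 0.21 in the proximal libraries, -0.46 in the middle libraries and -0.22 in the distal libraries. Neither difference was tested, since each sex has 1 library per region.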

How the results depend on the processing

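The alternatives numbered 13. The members below 0 in distal against proximal colon numbered 53 of 54, or 39 of 40 with a minimum of 5 FPKM, in all alternatives except those that left out a library: 54 without male proximal or male distal, 46 without female proximal, 48 without female distal and 53 without either middle library. The count that fell in that comparison was 3 S phase and 5 mitotic members with a pseudocount of 0.1, a minimum of 5 FPKM, quantile normalization or median-ratio size factors. It was 0 and 0 with no condition on low values, where 685 of 17094 tested genes fell, and the mitotic count was 3 with no variance trend. Those 3 were Ccnb1, Cenpa and Cdc25c, and Cdc25c was not among the 5 of the main fit. With no replicate block, that is without the term for sex that pairs the libraries, the counts were 2 and 0, where 656 of 11815 tested genes fell. Leaving out a library gave 0 to 11 S phase and 0 to 15 mitotic members, with medians of -0.72 to -0.23 and -0.75 to -0.27. Against proximal colon, middle colon gave 0 to 2 S phase and 0 mitotic calls (medians -0.56 to -0.0025 and -0.43 to 0.03). Distal against middle colon gave 0 to 1 calls in each class, with medians of -0.46 to -0.016 and -0.48 to -0.15. Female against male gave no call in any alternative, with medians of -0.33 to -0.0070 and -0.59 to -0.29. The 8 genes that fell kept their direction in all 13 alternatives and their call in 57 of the 104 gene-by-alternative results: 9 of 13 each for Mcm4, Pcna and Rrm2, 7 for Cdc20 and Ube2c, 6 for Ccnb1, and 5 for Birc5 and Cenpa. The cause of these losses was not tested. With 2 libraries per region, 2 residual degrees of freedom and 7.83 to 9.94 M fragments, small differences were not detectable.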
